A study of Arabidopsis thaliana with 22 samples.

Results

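The loci described here are AT5G44562, AT5G00585, AT5G06575, AT5G06585 and AT5G44569, the 5 noncoding loci listed for the stretch of Arabidopsis chromosome 5 that leads to PROSCOOP12. They were taken by locus name from the 5224 noncoding transcripts that were quantified, and they were chosen by the CPM of AT5G00585 in SCOOP12-treated and control roots, the measured values that drew attention to the stretch. Reads were found on 3 of the 5 loci, and 2 of them, AT5G00585 and AT5G44562, had enough for a test. The labels are of roots of 11-day-old Arabidopsis thaliana plants grown in short days, either proscoop12 mutants in the Ws background or wild-type Ws. Plants of both genotypes received the peptide SCOOP12 at 100 nM or water as the control, and the differentiation zone (DZ) and the meristematic-elongation zone (MEZ) of the root were sampled apart. The 8 groups are proscoop12 DZ with SCOOP12, proscoop12 DZ control, Ws DZ with SCOOP12, Ws DZ control, proscoop12 MEZ with SCOOP12, proscoop12 MEZ control, Ws MEZ with SCOOP12 and Ws MEZ control. Each has 3 libraries, numbered 1, 3 and 4, except Ws DZ control and Ws MEZ with SCOOP12, which have 2, numbered 3 and 4. The labels name no allele for the mutant and do not say how many plants went into a library or how long the peptide was present.

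PROSCOOP12 encodes the precursor of SCOOP12, a member of the serine-rich endogenous peptides of Brassicaceae. Such peptides are cut from secreted precursors and are perceived at the cell surface by the receptor kinase MIK2 with its co-receptor BAK1, and the oxidase RBOHD makes reactive oxygen species downstream of such receptors. The precursor genes are short, often lie side by side in tandem clusters, and begin with a stretch that encodes a secretion signal. Noncoding loci in such clusters can be antisense to a neighbouring gene, can lie inside another transcript, or can stand alone. PROSCOOP12, MIK2, BAK1 and RBOHD are coding genes and were not analysed here, so the targeted gene gives no check of the genotype labels, and coding markers of the root zones give none of the zone labels.

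From AT5G44562 to AT5G44569 the RefSeq annotation (TAIR10.1) lists 9 genes, 4 of them protein-coding, and PROSCOOP12 is gene 18 counted from AT5G44562. AT5G00585 is gene 6 in this count, with 11 genes between it and PROSCOOP12. It is a misc_RNA on the plus strand, 1622 nt long as quantified, and overlaps no coding exon on either strand. RefSeq lists 2 transcripts of it, one unspliced and of the quantified length, the other spliced and of 862 nt. AT5G06585, a lncRNA of 200 nt on the same strand, lies wholly inside AT5G00585, at its bases 147 to 346. AT5G06575, a lncRNA of 206 nt on the minus strand, lies with 100% of its length opposite exons of the coding gene AT5G44563. AT5G44562 is a lncRNA of 696 nt in 2 exons on the minus strand, and 560 nt of it (80.5%) lie opposite exons of VPS2.2 (AT5G44560), which encodes a subunit of the membrane-shaping ESCRT-III complex. AT5G44569 is an ncRNA of 705 nt on the plus strand, with 180 nt (25.5%) opposite the coding gene AT5G44566. The quantified length equals that in RefSeq for 5 of 5 loci. The build used for quantification is not given in the sources used here, so the loci are placed by gene order only.

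The stretch of AT5G00585 that resembles a coding neighbour on the same strand is shown first. In a blastn search, 161 aligned positions that cover bases 65 to 214 of AT5G00585 were 69.6% identical to the coding gene AT5G44567 on the same strand. AT5G44569 also matched coding genes on the same strand, but elsewhere in the genome. These were AT3G13440 (70.8% over 439 aligned positions) and AT3G58875 (72.5% over 120). The first exon of the spliced AT5G00585 transcript has 213 nt, and its capitals mark the exon's part of the longest ATG-to-stop frame in that transcript, 53 codons from base 99. The coding parts of the first exons of AT5G44567 and PROSCOOP12 follow it, whole in capitals, and all are plus-strand RefSeq sequences of chromosome 5. In AT5G06585 the capitals mark the 68 nt it shares with that AT5G00585 exon.
AT5G00585: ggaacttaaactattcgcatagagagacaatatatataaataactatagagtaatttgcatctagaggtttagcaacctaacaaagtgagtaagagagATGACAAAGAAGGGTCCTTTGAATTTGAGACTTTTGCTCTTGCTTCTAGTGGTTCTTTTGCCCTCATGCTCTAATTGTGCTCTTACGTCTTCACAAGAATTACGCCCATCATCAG
AT5G44567: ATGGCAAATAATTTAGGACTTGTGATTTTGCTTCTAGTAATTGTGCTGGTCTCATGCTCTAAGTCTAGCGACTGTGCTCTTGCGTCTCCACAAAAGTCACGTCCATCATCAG
PROSCOOP12: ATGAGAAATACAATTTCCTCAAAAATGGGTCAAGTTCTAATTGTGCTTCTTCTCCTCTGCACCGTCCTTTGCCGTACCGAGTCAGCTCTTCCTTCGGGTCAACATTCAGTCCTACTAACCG
AT5G06585: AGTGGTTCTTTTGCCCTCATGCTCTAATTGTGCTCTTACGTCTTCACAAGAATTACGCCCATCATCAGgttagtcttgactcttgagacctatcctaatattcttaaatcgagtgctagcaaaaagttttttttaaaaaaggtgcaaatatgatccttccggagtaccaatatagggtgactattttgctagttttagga
The annotated coding sequences of AT5G44567 and PROSCOOP12 have 79 and 78 codons, longer than the 53-codon frame of the spliced AT5G00585 transcript. In the unspliced form that was quantified, the longest frame has 39 codons and begins at base 100. This is the same ATG as base 99 of the spliced transcript, because bases of the 2 forms are counted from different starts. The frame is cut short there by a TAG just past the end of that first exon. Bases 65 to 214 of the blastn match are counted in the unspliced form. No read position is available in these files, so the values below say neither which AT5G00585 transcript was present nor whether a frame was used. The blastn search found no match of this kind between AT5G00585 and PROSCOOP12.

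Libraries held 474436 to 1575523 estimated reads on 1262 to 1475 noncoding loci, and ribosomal and organellar loci took 79.97% to 90.42% of them. Levels are given as CPM, reads per 1e+06 reads on the 844 loci that passed a filter on low counts, with library sizes scaled by TMM. Organellar loci took 19.66% to 46.86% of reads in DZ with SCOOP12, 36.13% to 43.93% in DZ controls and 17.21% to 21.89% in MEZ. File names carry the same number for replicates 1 and 3 (14 libraries) and another number for replicate 4 (8 libraries). What this number stands for is not stated in the sources used here. File name and label give different groups for 2 libraries. Replicate 3 of Ws DZ with SCOOP12, by its label, carries the name of a proscoop12 DZ control, and replicate 3 of the proscoop12 DZ controls carries the name of a treated Ws DZ library. The labels were followed, and the DZ results that rest on these libraries are also given without them. Separate plants or cultures behind the replicates are not mentioned in the labels, and the tests below cover only the variation among these libraries, which may be technical.

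Over all 22 libraries AT5G00585 collected 2898 reads, 17 to 380 per library, and AT5G44562 collected 355, 2 to 26 per library. AT5G44569 had 2 reads in all, 1 each in replicate 4 of proscoop12 DZ with SCOOP12 and of proscoop12 MEZ with SCOOP12, with an exact Poisson 95% interval of 0.242 to 7.22 that covers counting error only. Parts of AT5G44569 were 67.8% to 81.8% identical to coding genes elsewhere in the genome, and 180 nt of it lie opposite AT5G44566. The origin of these 2 reads was not tested. AT5G06575 and AT5G06585 had 0 reads in all 22 libraries, which allows up to 3.69 reads each by the same interval. Salmon's effective lengths for these short transcripts were 47.5 to 56.7 nt (AT5G06575) and 44.0 to 52.7 nt (AT5G06585), against 1401.6 to 1430.7 nt for AT5G00585, so the files leave little length on which a read pair could be counted at either short locus. The sequence of AT5G06585 is also part of AT5G00585, so that a read pair from inside it could be assigned to either locus. No group comparison was possible at AT5G44569, AT5G06575 or AT5G06585.

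**Figure D1:**
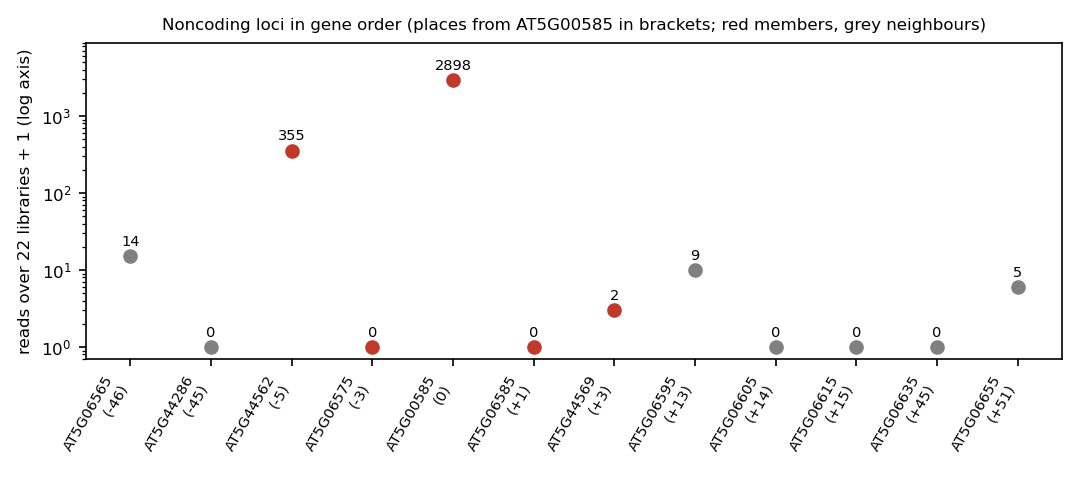
Estimated reads summed over 22 libraries, plus 1, on a log axis, for the noncoding loci within 50 annotated genes of the stretch, in gene order, with the place relative to AT5G00585 in brackets and the sum printed at each point. AT5G00585 (2898 reads) and AT5G44562 (355 reads) stand above all neighbours, of which AT5G06565 has the most (14 reads). Sums were not scaled by transcript length, and the lengths of the neighbours are not given here.

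The low values of the short loci were shared by the noncoding loci farther along the chromosome. Within 50 annotated genes on either side of the stretch lie 7 other quantified noncoding loci, and 0 of them could be tested. AT5G06565, AT5G06595 and AT5G06655 had 14, 9 and 5 reads over all libraries, and the other 4 had 0. AT5G06595 comes next after PROSCOOP12 in the gene order, and its 9 reads fell in 4 libraries with at most 3 in any of them.

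AT5G00585 was the locus of this stretch with the clearest pattern: its mean with SCOOP12 was 4.50 to 5.64 times that of controls in both zones and both genotypes, and it was lower in DZ than in MEZ with and without the peptide. The SCOOP12 values are what drew attention to the stretch and are given as a description, with no test. In DZ, proscoop12 libraries with SCOOP12 had 137, 107 and 158 CPM at AT5G00585, against 21.5, 22.6 and 27.2 CPM in proscoop12 controls. Ws DZ libraries had 104, 196 and 136 CPM with SCOOP12, against 20.7 and 44.2 CPM in controls. Every treated DZ library thus lay above every DZ control, whichever the genotype. In MEZ, proscoop12 libraries had 361, 401 and 345 CPM with SCOOP12, against 58.5, 75.7 and 76.6 CPM in controls. Ws MEZ libraries had 478 and 393 CPM with SCOOP12, against 89.0, 108 and 76.6 CPM in controls. The treated libraries lay above the controls without overlap in MEZ as well, by a wider gap in CPM than in DZ. In whole root zones, more RNA per cell and more cells that hold the RNA cannot be told apart.

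**Figure D2:**
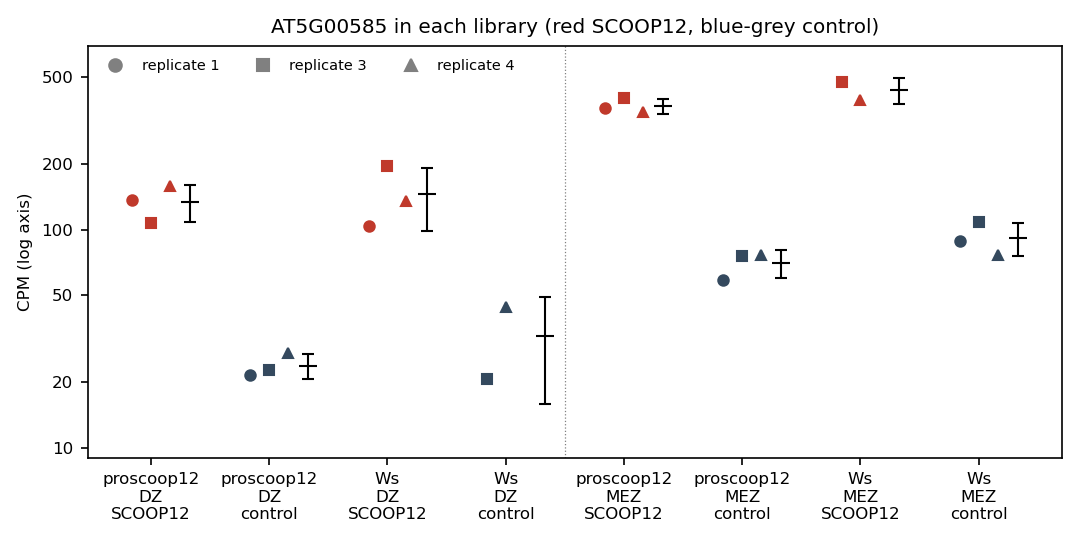
AT5G00585 level in CPM on a log axis in each of 22 libraries, DZ groups left and MEZ groups right of the dotted line, with marker shape for the replicate number and the mean ± SD beside each group (n = 3, or 2 in Ws DZ control and Ws MEZ with SCOOP12). Treated libraries lie at 104 to 196 CPM in DZ and 345 to 478 CPM in MEZ, control libraries at 20.7 to 44.2 CPM in DZ and 58.5 to 108 CPM in MEZ.

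Expressed as log2 fold changes of SCOOP12 over control, the response of AT5G00585 was 2.50 (SE 0.31) in proscoop12 DZ, 2.17 (SE 0.35) in Ws DZ, 2.39 (SE 0.29) in proscoop12 MEZ and 2.25 (SE 0.31) in Ws MEZ. The corresponding ratios were 5.64, 4.50, 5.24 and 4.76. Of the 844 loci, 1.3% passed edgeR's test in proscoop12 DZ, 0.355% in Ws DZ, 0.829% in proscoop12 MEZ and 0.237% in Ws MEZ. These shares depend on the fit: 11, 3, 7 and 2 loci passed, against 50, 11, 23 and 10 with the replicate number as a block. Higher values without overlap were found at 10.3%, 10.7%, 5.69% and 17.7% of loci in the same order of comparisons. The median log2 fold change over all loci was 0.05, 0.05, -0.04 and 0.00. Without the libraries whose names and labels disagree, the proscoop12 DZ controls were at 21.5 and 27.2 CPM and the treated Ws DZ libraries at 104 and 136 CPM, again without overlap with the other treatment. The response without them was 2.44 in proscoop12 DZ and 1.87 in Ws DZ. With the labels of those 2 libraries exchanged, the response was 0.69 in proscoop12 DZ and 1.44 in Ws DZ. By label, the organellar share was 20.33% in Ws DZ SCOOP12 replicate 3, where the other treated DZ libraries of replicates 3 and 4 had 19.66% to 25.23%. Treated DZ libraries of replicate 1 had 38.21% and 46.86%, however. The share was 38.49% in proscoop12 DZ control replicate 3, which is itself part of the 36.13% to 43.93% of DZ controls. Whether the labels or the file names are right was not tested.

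The differences of the AT5G00585 response between genotypes and zones come from the same values and are given without a test. Between proscoop12 and Ws, the response differed by 0.33 on the log2 scale in DZ (SE 0.44, 95% interval -0.546 to 1.20) and by 0.14 in MEZ (SE 0.41, 95% interval -0.673 to 0.950). Between DZ and MEZ, it differed by 0.11 in proscoop12 (SE 0.39, 95% interval -0.664 to 0.876) and by -0.08 in Ws (SE 0.47, 95% interval -1.01 to 0.841). All 4 differences were smaller than their SE, with intervals that still allow changes in either direction. Without both libraries whose names and labels disagree they were 0.58, 0.17, 0.01 and -0.39 in the same order. In DZ the sign of the genotype difference turned to -0.32 without Ws DZ control replicate 4.

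AT5G00585 was lower in DZ than in MEZ in each of 4 comparisons that share no library. They were tested with edgeR's quasi-likelihood F test, and every adjusted p given here is a Benjamini-Hochberg value over 844 loci. In control roots, proscoop12 averaged 23.8 ± 2.99 CPM in DZ and 70.3 ± 10.2 CPM in MEZ (SD, n = 3 each), and it fell by 1.56 on the log2 scale (SE 0.31, edgeR adjusted p 0.00107). Ws controls averaged 32.4 ± 16.6 CPM in DZ (SD, n = 2) and 91.2 ± 15.8 CPM in MEZ (SD, n = 3), or -1.50 on the log2 scale (SE 0.34, edgeR adjusted p 0.00479). The zone did not choose the loci, but all 4 comparisons use the CPM values of AT5G00585 that drew attention to them. This Ws control value was also known when they were chosen, so its adjusted p is no independent support. With SCOOP12, proscoop12 averaged 134 ± 25.5 CPM in DZ and 369 ± 28.9 CPM in MEZ (SD, n = 3 each), or -1.46 on the log2 scale (SE 0.28, edgeR adjusted p 0.00768). Ws with SCOOP12 averaged 145 ± 47 CPM in DZ (SD, n = 3) and 436 ± 59.9 CPM in MEZ (SD, n = 2), or -1.58 on the log2 scale (SE 0.30, edgeR adjusted p 0.0149). DZ levels were thus 0.338, 0.354, 0.364 and 0.334 times those of MEZ, and the zones did not overlap in any of the 4 comparisons. Lower values in DZ without overlap occurred at 18.1%, 24.5%, 10.3% and 13% of loci in the same order.

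How many other loci differed by zone depended on the treatment and on the fit. In the comparisons of controls, 19.8% of loci passed in proscoop12 and 18.4% in Ws, 9.83% and 9.24% of all loci with lower levels in DZ, so that a call there was no rarity. With SCOOP12, 0.948% of loci passed in each genotype, 0.711% and 0.829% with lower levels in DZ. With the replicate number as a block, 81 loci passed in proscoop12 with SCOOP12 and 58 in Ws with SCOOP12, against 8 in each without it. Lower levels in DZ in all 4 comparisons were found at 2 of 844 loci (0.237%). These were AT5G00585, whose value in Ws controls was already known, and AT5G09595, named after its values were seen. With the block 23 loci passed in all 4, both of these among them. The difference at AT5G00585 without both libraries whose names and labels disagree was -1.46 in proscoop12 controls (edgeR adjusted p 0.00786) and -1.81 in Ws with SCOOP12 (edgeR adjusted p 0.0183). With the 2 labels exchanged it was 0.24 in proscoop12 controls (edgeR adjusted p 0.844), and the other 3 no longer passed at folds as large or larger with a wider spread, at -1.50 in Ws controls, -1.46 in proscoop12 with SCOOP12 and -2.31 in Ws with SCOOP12. The call in Ws controls was lost without Ws DZ control replicate 3 (-1.04, edgeR adjusted p 0.102), and that in proscoop12 with SCOOP12 without proscoop12 DZ SCOOP12 replicate 3 (-1.31, edgeR adjusted p 0.0578). In Ws with SCOOP12 it was lost without DZ replicate 1 (-1.39, edgeR adjusted p 0.0688), DZ replicate 4 (-1.50, edgeR adjusted p 0.0514) or MEZ replicate 3 (-1.43, edgeR adjusted p 0.162).

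The share of organellar reads moved with the zone in controls, at 36.13% to 43.93% in DZ and 17.21% to 21.89% in MEZ. In treated DZ libraries it was 38.21% and 46.86% in replicate 1 and 19.66% to 25.23% in replicates 3 and 4. In replicates 3 and 4 the share therefore also moved with the treatment in DZ, where AT5G00585 was higher with SCOOP12. With ribosomal and organellar loci left out, that response was 2.46 in proscoop12 DZ and 2.13 in Ws DZ. AT5G00585 stood at 107, 158, 196 and 136 CPM in the 4 DZ libraries of replicates 3 and 4 with SCOOP12 and at 401, 345, 478 and 393 CPM in the MEZ libraries of the same numbers. With ribosomal and organellar loci left out of the fit, the zone differences were -1.50 in proscoop12 control, -1.42 in Ws control, -1.45 in proscoop12 with SCOOP12 and -1.53 in Ws with SCOOP12, and all 4 passed.

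Between the genotypes, AT5G00585 did not pass in any condition. Its levels in proscoop12 DZ controls, 21.5 to 27.2 CPM, lay within those of Ws DZ controls, 20.7 and 44.2 CPM (log2 fold change -0.44, SE 0.35, 95% interval -1.13 to 0.244, edgeR adjusted p 0.980; -0.43 without both doubtful libraries). In DZ with SCOOP12 the difference was -0.12 (SE 0.28, -0.657 to 0.423, edgeR adjusted p 1). In MEZ controls, the mutant libraries at 58.5, 75.7 and 76.6 CPM lay at or below the wild-type libraries at 89.0, 108 and 76.6 CPM (3.55% of loci were lower without overlap here), a difference of -0.38 on the log2 scale (SE 0.28, -0.934 to 0.179, edgeR adjusted p 1). In MEZ with SCOOP12 it was -0.24 (SE 0.30, -0.829 to 0.351, edgeR adjusted p 0.995). The mutant's mean was lower in all 4 conditions, but the sign turned in DZ controls without Ws DZ control replicate 4 (0.19) and in DZ with SCOOP12 without both libraries whose names and labels disagree (0.15). Of all loci, 0.118% passed for genotype in MEZ controls and in MEZ with SCOOP12, and 0 passed edgeR's test in either DZ comparison. DESeq2 called 1 locus in DZ with SCOOP12 and 0 in DZ controls, and edgeR's unadjusted p was under 0.05 at 8 and 32 loci of these comparisons.

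Ordered by mean CPM, AT5G00585 stood lowest in proscoop12 DZ control (23.8), followed by Ws DZ control (32.4), proscoop12 MEZ control (70.3), Ws MEZ control (91.2), proscoop12 DZ with SCOOP12 (134), Ws DZ with SCOOP12 (145), proscoop12 MEZ with SCOOP12 (369) and Ws MEZ with SCOOP12 (436). The 4 combinations of treatment and zone follow each other in this order, and within each combination the genotypes were neighbours whose difference did not pass. DZ libraries with SCOOP12, at 104 to 196 CPM, overlapped MEZ controls, at 58.5 to 108 CPM. The other combinations did not overlap with each other. Per kilobase of effective length, AT5G00585 averaged 19.3 ± 6.91 CPM per kb in DZ controls (SD, n = 5) and 57.1 ± 11.8 CPM per kb in MEZ controls (SD, n = 6). AT5G44562 averaged 41.9 ± 12.1 and 21.3 ± 8.86 CPM per kb in the same libraries, so that per length the antisense locus stood above AT5G00585 in DZ controls and below it in MEZ controls. These level comparisons between loci were not tested.

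**Figure D3:**
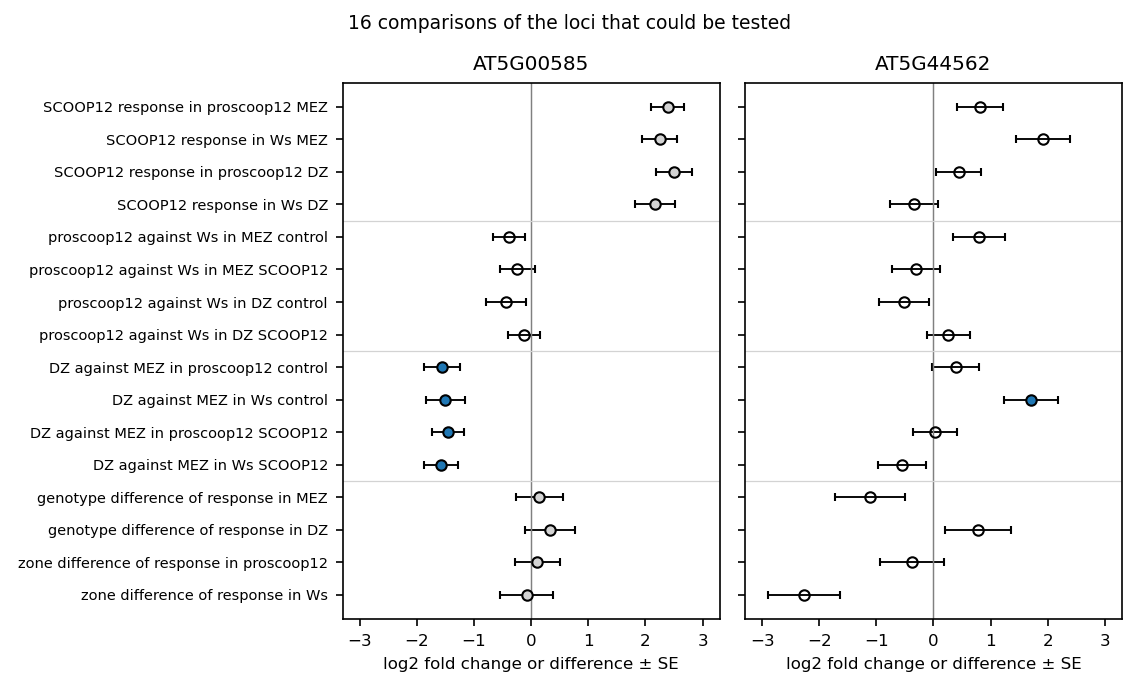
Log2 fold change or difference of fold changes ± SE for AT5G00585 (left) and AT5G44562 (right) in 16 comparisons from one edgeR fit of 22 libraries, the group named before "against" over the group named after it. Blue points passed at an adjusted p under 0.05, open points did not, and grey points (the response of AT5G00585 and its differences) have no test. AT5G00585 lies between -1.58 and -1.46 in the 4 zone comparisons, and AT5G44562 passed in one of them, at 1.71.

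AT5G44562, the lncRNA opposite VPS2.2, had a different pattern: it was higher in DZ than in MEZ in Ws controls, with no zone difference that passed elsewhere. Ws controls had 25.3 and 24.7 CPM in DZ, against 2.51, 9.50 and 10.9 CPM in MEZ. The zones did not overlap (higher in DZ without overlap at 25.1% of loci), and the locus rose by 1.71 on the log2 scale (SE 0.47, edgeR adjusted p 0.0138), where 18.4% of loci passed, 9.12% of all loci with higher levels in DZ. Proscoop12 controls had 19.1, 21.3 and 11.2 CPM in DZ, against 14.6, 13.7 and 11.4 CPM in MEZ, which overlap (0.39, SE 0.41, edgeR adjusted p 0.546; 0.28 without both doubtful libraries). The call in Ws rests on few reads, 41 in the DZ controls and 17 in the MEZ controls. It was lost without Ws MEZ control replicate 1 (1.29, edgeR adjusted p 0.0697). It was also lost where only 1 Ws DZ control library was left. The values there were 1.70 without replicate 3, 1.73 without replicate 4 and 2.10 with replicates 1 and 3 alone. Replicate 4 alone gave 1.02, with no test.

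With SCOOP12 the zones of both genotypes overlapped at AT5G44562. The libraries of proscoop12 had 25.8, 22.8 and 22.4 CPM in DZ, against 17.4, 23.3 and 28.9 CPM in MEZ (0.03, SE 0.38, edgeR adjusted p 0.987). Ws libraries had 23.5, 16.6 and 19.3 CPM in DZ, against 18.9 and 39.5 CPM in MEZ (-0.55, SE 0.42, edgeR adjusted p 0.673; -0.38 without both doubtful libraries).

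The SCOOP12 response of AT5G44562 did not pass in any of the 4 comparisons. In Ws MEZ, libraries with SCOOP12 (18.9 and 39.5 CPM) lay above the controls (2.51, 9.50 and 10.9 CPM), by 1.92 on the log2 scale (SE 0.47, edgeR adjusted p 0.110). Its unadjusted p of 0.000534 was the 4th smallest of 844 in a comparison where 10.8% of loci had an unadjusted p under 0.05. Leaving out 1 library gave 1.31 (without SCOOP12 replicate 4) to 2.37 (without SCOOP12 replicate 3), each with only 1 treated library left. The other settings gave 1.63 (replicates 1 and 3 alone, again with 1 treated library) to 1.93. None of them passed, and the smallest edgeR adjusted p among them was 0.0541, with the replicate block. In proscoop12 MEZ, libraries with SCOOP12 (17.4, 23.3 and 28.9 CPM) also lay above the controls (14.6, 13.7 and 11.4 CPM), by 0.81 on the log2 scale (SE 0.40, edgeR adjusted p 0.639). Higher values without overlap occurred at 17.7% and 5.69% of loci in these comparisons, so this order of the libraries alone is not rare.

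In DZ the treated libraries of proscoop12 had 25.8, 22.8 and 22.4 CPM, against 19.1, 21.3 and 11.2 CPM in controls (0.44, SE 0.39, edgeR adjusted p 0.737), without overlap, as at 10.3% of loci. In Ws DZ, the treated libraries at 23.5, 16.6 and 19.3 CPM lay below the controls at 25.3 and 24.7 CPM (-0.34, SE 0.42, edgeR adjusted p 0.932), an order without overlap that 8.18% of loci shared. Without the 2 libraries whose names and labels disagree, the log2 fold changes were 0.60 in proscoop12 DZ and -0.26 in Ws DZ. The estimated response thus had opposite signs in the zones of Ws, although that in DZ was smaller than its SE. The difference of the response between DZ and MEZ was -2.26 (SE 0.63, unadjusted p 0.00184), the 7th smallest p of 844, with an edgeR adjusted p of 0.222. Leaving out 1 library gave -2.71 to -1.65, and -1.83 (edgeR adjusted p 0.51) without Ws MEZ control replicate 1. In proscoop12 that difference was -0.37 (SE 0.56, edgeR adjusted p 0.874), where 0.592% of loci passed. In Ws edgeR called 0 loci (83 had an unadjusted p under 0.05), while DESeq2 called 6. Without the 2 libraries whose names and labels disagree it was -2.19 in Ws and -0.25 in proscoop12.

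**Figure D4:**
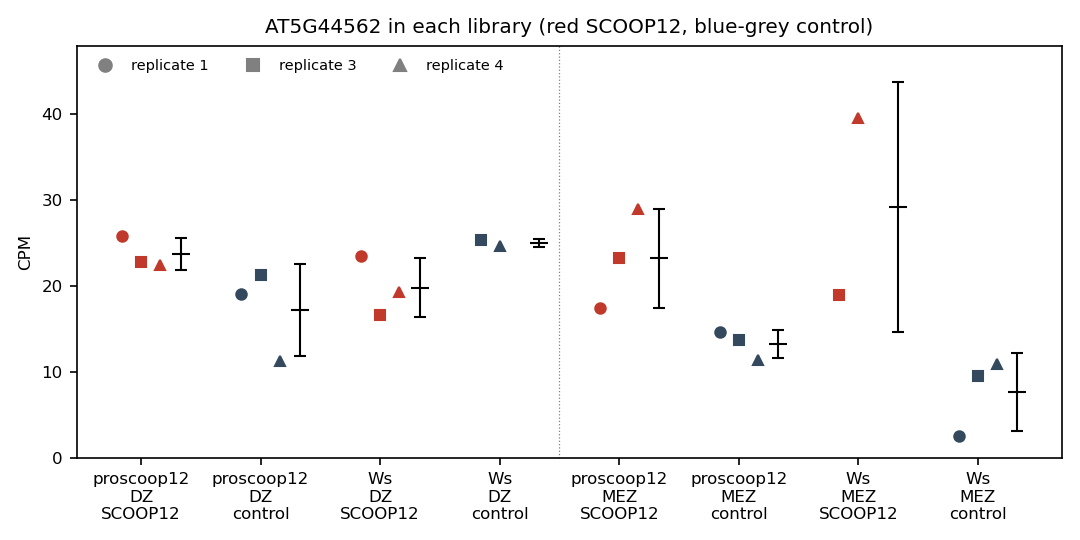
AT5G44562 level in CPM on a linear axis in each of 22 libraries, laid out as in the plot of AT5G00585, with the mean ± SD beside each group (n = 3, or 2 in Ws DZ control and Ws MEZ with SCOOP12). The highest library is Ws MEZ with SCOOP12 replicate 4 at 39.5 CPM, and the lowest is Ws MEZ control replicate 1 at 2.51 CPM.

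Genotype made no difference that passed at AT5G44562 either. The log2 fold change of proscoop12 over Ws was -0.52 in DZ controls (SE 0.44, edgeR adjusted p 0.980) and 0.26 in DZ with SCOOP12 (SE 0.38, edgeR adjusted p 1). It was 0.80 in MEZ controls (SE 0.45, edgeR adjusted p 1), where the mutant libraries at 11.4 to 14.6 CPM lay above the wild-type libraries at 2.51 to 10.9 CPM (as at 4.03% of loci), and -0.31 in MEZ with SCOOP12 (SE 0.42, edgeR adjusted p 0.995). Without the 2 libraries whose names and labels disagree, the DZ values were -0.72 in controls and 0.14 with SCOOP12. The difference of the SCOOP12 response between the genotypes was 0.78 in DZ (SE 0.58) and -1.11 in MEZ (SE 0.62), with an edgeR adjusted p of 1 in both and 0 of 844 loci past the test under edgeR or DESeq2 (21 and 15 loci at an unadjusted p under 0.05). Without both doubtful libraries the value in DZ was 0.86. Since 80.5% of this locus lies opposite exons of VPS2.2 and the counted strand is not given in the sources used here, reads of VPS2.2 and of AT5G44562 cannot be told apart with certainty, although the libraries were stranded.

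The levels of AT5G00585 and AT5G44562 ran together only loosely, with a Pearson r of 0.23 over 22 libraries and 0.31 over 8 group means of log2 CPM. The loci whose levels ran most like AT5G00585 over the 22 libraries were AT2G00870 (Pearson r 0.867), AT3G22121 (0.845), AT5G06865 (0.814), AT1G07937 (0.800) and AT5G09575 (0.763). All points share the same libraries, treatment and zones, so these values are a description with no p. Ranked by Spearman's rho, 4 of these 5 loci were again among the first 5. The 5 loci were chosen for this likeness, so their zone and SCOOP12 values are not given as tests.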

How the data were processed

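Per the labels' protocols, total RNA was extracted from each sample, and stranded mRNA libraries were sequenced as pairs of 100 nt reads. The authors quantified them with Salmon, per the submitters' processing notes, which also name DESeq2; the sources used here give neither versions, strand setting, genome build nor annotation. The authors' deposited values used here are Salmon's estimated counts per transcript, with lengths and effective lengths, per the file headers; deposited TPM served only as a check of the files. Estimated counts were rounded; 1.283% to 2.01% of values per library were fractional.

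A fit of 8 group means to all 22 libraries was made with edgeR 4.0.16 (R 4.3.3; TMM, filterByExpr with minimum count 10 and minimum total 15), tested on simulated data first. The quasi-likelihood test ran over 844 loci, with Benjamini-Hochberg adjustment in each of 16 comparisons and a threshold of 0.05. DESeq2 1.42.0 was an alternative. SE is |log2 fold change| divided by sqrt(F), and 95% intervals are normal intervals from it. CPM refer to the tested loci and scaled library sizes. Names, gene order and sequences are from RefSeq TAIR10.1, matched by locus name (5182 of 5224 loci); similarity was searched with blastn 2.17.0 (E value 1e-05). The 5 loci and the comparisons were chosen with earlier results of these data known. The named loci are all members, the neighbouring noncoding loci with reads, and the 5 loci with the highest Pearson r to AT5G00585 on log2 CPM (prior count 2); AT5G09595 was named after its values were seen.

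Same-numbered replicates deviated together in the 6 comparisons with 3 pairs, of 12 checked (correlations of 0.109 to 0.677 after group means were removed). Their numbers were read as pairing the libraries there, but the main fit left this pairing out. Its SE and adjusted p treat the libraries as unpaired in every comparison. Blocking by replicate was an alternative setting only, and values from it are named as such.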

Additional observations from a re-analysis of the deposited data

How the results depend on the processing

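Values are log2 fold changes or their differences at AT5G00585 unless another locus is named. With the replicate block, the zone differences were -1.56, -1.57, -1.46 and -1.53 in proscoop12 control, Ws control, proscoop12 with SCOOP12 and Ws with SCOOP12, the zone difference of the response in Ws turned to 0.05, and the block changed no call at either locus. With the labels of the 2 doubtful libraries exchanged, SCOOP12 gave 0.69 in proscoop12 DZ and 1.44 in Ws DZ, genotype 1.36 in DZ controls and 0.61 in DZ with SCOOP12, zone 0.24 in proscoop12 control, -1.50 in Ws control, -1.46 in proscoop12 with SCOOP12 and -2.31 in Ws with SCOOP12 (edgeR adjusted p 0.844, 0.167, 0.287 and 0.0901), the genotype difference of the response in DZ -0.75 and its zone difference in proscoop12 -1.70. Without those libraries, genotype in DZ with SCOOP12 was 0.15. Replicates 1 and 3 alone left 1 library each in Ws DZ control and in Ws MEZ with SCOOP12. They gave 2.82 for SCOOP12 in Ws DZ and 0.11 for genotype in DZ controls. Zone values were -2.18 in Ws control, -1.66 in proscoop12 with SCOOP12 and -1.65 in Ws with SCOOP12, and none of these passed. Differences of response were -0.42 between genotypes in DZ, -0.16 between zones in proscoop12 and 0.53 between zones in Ws. Replicate 4 alone, with no test, gave 1.57 for SCOOP12 in Ws DZ, -0.00093 and 0.22 for genotype in MEZ controls and in DZ with SCOOP12, -0.76 and -1.11 for zone in Ws control and proscoop12 with SCOOP12, and -0.19, 0.87 and -0.75 for the genotype difference of the response in MEZ and DZ and its zone difference in Ws. The compared groups alone gave -1.55 for zone in Ws with SCOOP12 (edgeR adjusted p 0.298), with fewer libraries for the spread, and no filter gave -0.01 for the zone difference of the response in proscoop12. Leaving out 1 library gave 1.72 to 2.80 for SCOOP12 in Ws DZ, -0.90 to 0.19 and -0.30 to 0.17 for genotype in DZ controls and DZ with SCOOP12, -2.13 to -1.04, -1.59 to -1.31 and -1.85 to -1.39 for zone in Ws control, proscoop12 with SCOOP12 and Ws with SCOOP12, -0.32 to 0.77 for the genotype difference of the response in DZ, -0.02 to 0.25 and -0.54 to 0.55 for its zone difference in proscoop12 and Ws, and 1 to 2 reads at AT5G44569. At AT5G44562, genotype in MEZ with SCOOP12 turned to 0.12 and zone in Ws with SCOOP12 to 0.09 with replicates 1 and 3, and zone in proscoop12 with SCOOP12 to -0.05 with no filter; leaving out 1 library gave -0.76 to 0.30, -1.0 to 0.06 and -0.10 to 0.22 for these. Replicate 4 alone gave 0.87 for SCOOP12 in proscoop12 DZ, 0.05 and -1.0 for genotype in MEZ and DZ controls, 1.02 for zone in Ws control and -0.46 for the genotype difference of the response in MEZ. The cause of these changes was not tested. Loci past the test for SCOOP12 numbered 11, 3, 7 and 2 in proscoop12 DZ, Ws DZ, proscoop12 MEZ and Ws MEZ, against 50, 11, 23 and 10 with the block and 22, 4, 10 and 5 under DESeq2, and for zone 167 in proscoop12 control and 8 in each comparison with SCOOP12, against 268, 81 and 58 with the block and 175, 23 and 16 under DESeq2. AT5G44562 had few reads (2 to 26 per library), and AT5G44569, AT5G06575 and AT5G06585 had too few for any comparison. The cause of these low counts was not tested. Within 50 or 25 annotated genes, 0 of the neighbouring loci could be tested.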
